A study of Mus musculus with 5 samples.

Results

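Barcodes in which insulin and glucagon transcripts were both abundant, called dual barcodes below, numbered 145 of 4687 (3.09%) in droplet libraries of mouse pancreatic islets. A barcode is the tag that a droplet gives to all transcripts caught in it. A barcode counted as dual when Ins1 and Ins2 together made up at least 15% and Gcg at least 5% of its unique molecular identifiers (UMIs, tags that inDrop puts on single transcripts). Ins1 and Ins2 are the paired insulin genes of the mouse and Gcg is the gene of preproglucagon. On GRCm38.p6 the RefSeq annotation places Gcg at chr2:62474530-62483653, Ins1 at chr19:52264297-52265015 and Ins2 at chr7:142678656-142679726, all protein coding. The dual barcodes were chosen by the measured shares of these 3 genes, which are given as a description, with no test.

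The islets came from C57BL/6 mice that were not pregnant, pregnant or postpartum, and were dispersed to viable cells before inDrop, a droplet method that counts polyadenylated RNA. The non-pregnant state had 1 library, while pregnancy (pregnant 1, pregnant 2) and the time after birth (postpartum 1, postpartum 2) had 2 each. The sources used here give no age, day of pregnancy or day after birth, and nothing in the labels says that the libraries came from separate animals, so p-values measure the spread between these libraries, which may be technical.

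Dual barcodes were set against 2 classes of the same libraries. Insulin-high barcodes had at least 15% insulin and under 1% Gcg and numbered 2261. Glucagon-high barcodes had at least 5% Gcg and under 3% insulin and numbered 483.

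In the adult islet, beta cells release insulin when blood glucose is high and alpha cells release glucagon when it is low, and each type normally transcribes the gene of its own hormone and silences the other. Cells that hold both hormones occur in the fetal pancreas, and alpha cells can switch on insulin after extreme loss of beta cells in mice. In droplet methods a barcode can also hold RNA of more than 1 cell, or RNA that floated free in the suspension. The files record no measure of how many cells a barcode stood for, so for any single dual barcode these origins cannot be told apart.

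The libraries differed in depth. The non-pregnant library held 847 barcodes, pregnant 1 and 2 held 1993 and 164, and postpartum 1 and 2 held 557 and 1126. Their median depth in this order was 2553, 539, 89, 236 and 572.5 UMIs. The non-pregnant file has another scale, more features and the highest depth, so the non-pregnant state cannot be told apart from these differences. Pregnant 2 stood apart through its low depth and held 2 dual barcodes, with 119 UMIs outside the hormone genes in all, so tests and levels by class use the other 4 libraries. Barcodes are numbered anew in each file, so those that libraries share could not be counted, and 0 columns were repeated within a library.

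Dual barcodes were present in every library. They numbered 16 in the non-pregnant library, 45 and 2 in pregnant 1 and 2, and 21 and 61 in postpartum 1 and 2. As a share of barcodes this was 1.89% (95% Clopper-Pearson interval 1.08 to 3.05) in the non-pregnant library. It was 2.26% (1.65 to 3.01) in pregnant 1 and 1.22% (0.148 to 4.34) in pregnant 2. It was 3.77% (2.35 to 5.71) in postpartum 1 and 5.42% (4.17 to 6.90) in postpartum 2. The interval of postpartum 2 lay above those of the non-pregnant library and of pregnant 1, and that of postpartum 1 overlapped all others. These intervals cover counting error only. The shares were not tested between states, which had 1, 2 and 2 libraries.

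The order of the libraries depended on where the thresholds lay. At 10% insulin and 2.5% Gcg the share was highest in pregnant 1, at 21.1%, against 10.5% in the non-pregnant library, 5.92% in postpartum 1 and 8.61% in postpartum 2. At 20% and 10% it was 0.236% in the non-pregnant library, 0.201% in pregnant 1, 2.15% in postpartum 1 and 2.66% in postpartum 2. Under the stricter rule 2, 4, 1, 12 and 30 dual barcodes were left in the order of the libraries above. The libraries also differed in barcodes with little Gcg: those with at least 15% insulin and 1 to 5% Gcg numbered 259 in the non-pregnant library and 908 in pregnant 1, against 16 in postpartum 1 and 86 in postpartum 2. Per dual barcode that is 16.2, 20.2, 0.762 and 1.41.

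**Figure D1:**
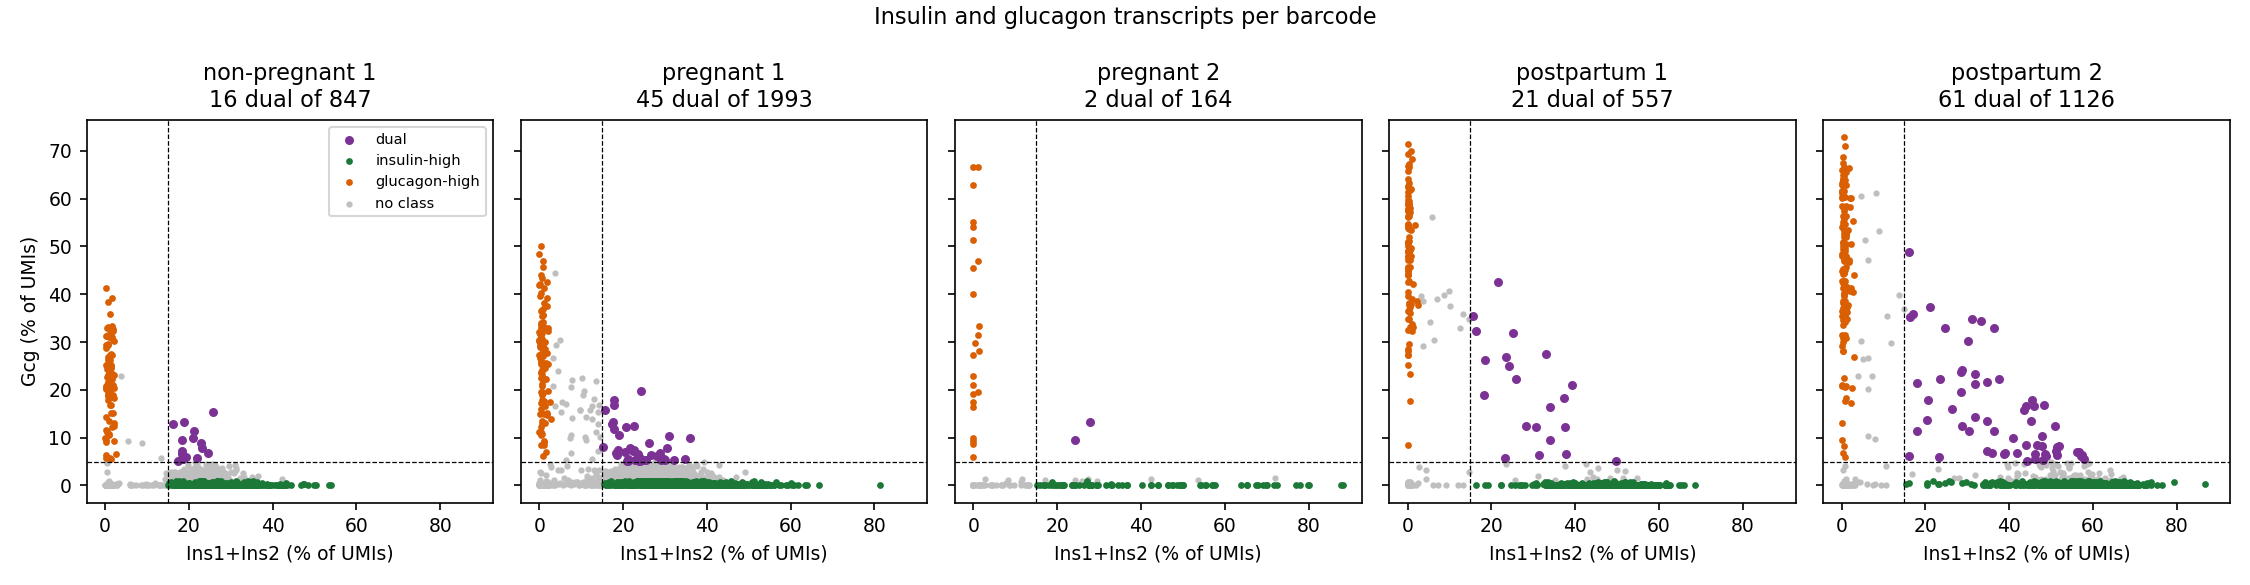
Each point is 1 barcode, with Ins1 plus Ins2 on the x axis and Gcg on the y axis, both as a percent of its UMIs; panels are libraries and dashed lines the thresholds of 15% and 5%. In the non-pregnant library and pregnant 1 the dual barcodes lie over a dense cloud of barcodes with 1 to 5% Gcg (259 and 908). Their Gcg share there has medians of 7.54% and 6.65% and reaches 15.3% and 19.7%. In postpartum 1 and 2 (16 and 86 such barcodes with 1 to 5% Gcg) the dual barcodes spread along the gap between the insulin-high and glucagon-high clouds.

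The hormone content of dual barcodes lay below that of either class on its own axis. Insulin made up a mean of 20.3%, 23.6%, 28.8% and 37.5% of UMIs in dual barcodes of the non-pregnant, pregnant 1, postpartum 1 and postpartum 2 libraries, against 27.9%, 35.0%, 46.3% and 56.2% in insulin-high barcodes. Gcg made up 8.59%, 8.15%, 19.8% and 15.4% in dual barcodes, against 21.8%, 26.4%, 48.4% and 45.7% in glucagon-high barcodes. Glucagon-high barcodes still carried 1.03%, 0.807%, 0.329% and 0.730% insulin and insulin-high barcodes 0.165%, 0.262%, 0.0946% and 0.236% Gcg, levels that the limits of 3% and 1% in the definition of these classes cap. Insulin was the more abundant hormone in most dual barcodes: Gcg exceeded it in 0 of 16, 1 of 45, 8 of 21 and 9 of 61. The 2 dual barcodes of pregnant 2 had 24.2% and 27.9% insulin and 9.55% and 13.2% Gcg.

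Just inside the threshold, the lowest Gcg share of a dual barcode was 5.02% in the non-pregnant library, 5.08% in pregnant 1, 5.20% in postpartum 1 and 5.05% in postpartum 2. Just outside it, the highest Gcg share among barcodes with enough insulin was 4.98%, 4.96%, 4.49% and 4.83% in the same order. Between 4 and 5% Gcg there were 10, 47, 3 and 16 such barcodes, and between 5 and 6% there were 5, 19, 2 and 4. The ratio of Ins2 to Ins1 UMIs was 2.19, 1.25, 1.89 and 2.29 in dual barcodes and 1.88, 1.43, 2.06 and 2.21 in insulin-high barcodes, with no common direction.

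Depth was not part of the rule, and dual barcodes differed from the other classes in no common direction. Their median was 2453, 605, 207 and 440 UMIs in the non-pregnant, pregnant 1, postpartum 1 and postpartum 2 libraries. It was 2738.5, 579, 248 and 601 UMIs in insulin-high barcodes and 2220, 484, 242 and 669.5 UMIs in glucagon-high barcodes. Of these 4 libraries, dual barcodes were deeper than insulin-high ones in pregnant 1 only, and deeper than glucagon-high ones in the non-pregnant library and pregnant 1. The log2 ratio of medians averaged -0.20 ± 0.21 (SD, n = 4 libraries) over insulin-high barcodes (exact two-sided sign-flip permutation test, p = 0.25). Over glucagon-high barcodes it averaged -0.09 ± 0.41 (n = 4; same exact test, p = 0.75), and 0.08 without postpartum 2. With 4 libraries the smallest p this exact test allows is 0.125.

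The sum of the median depths of the other 2 classes was reached by few dual barcodes. It came to 4958.5, 1063, 490 and 1270.5 UMIs in library order, and 3 of 16, 6 of 45, 0 of 21 and 3 of 61 dual barcodes reached it (18.8%, 13.3%, 0% and 4.92%). Of insulin-high barcodes 18%, 13.7%, 6.34% and 10.2% reached it, and of glucagon-high barcodes 3.26%, 1.80%, 5% and 3.85%. The 0 of 21 in postpartum 1 sits beside 21 barcodes only. On UMIs outside the hormone genes the log2 ratio of medians averaged -0.11 over insulin-high and -0.20 over glucagon-high barcodes (exact sign-flip permutation test over 4 libraries, p = 0.375 for each).

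**Figure D2:**
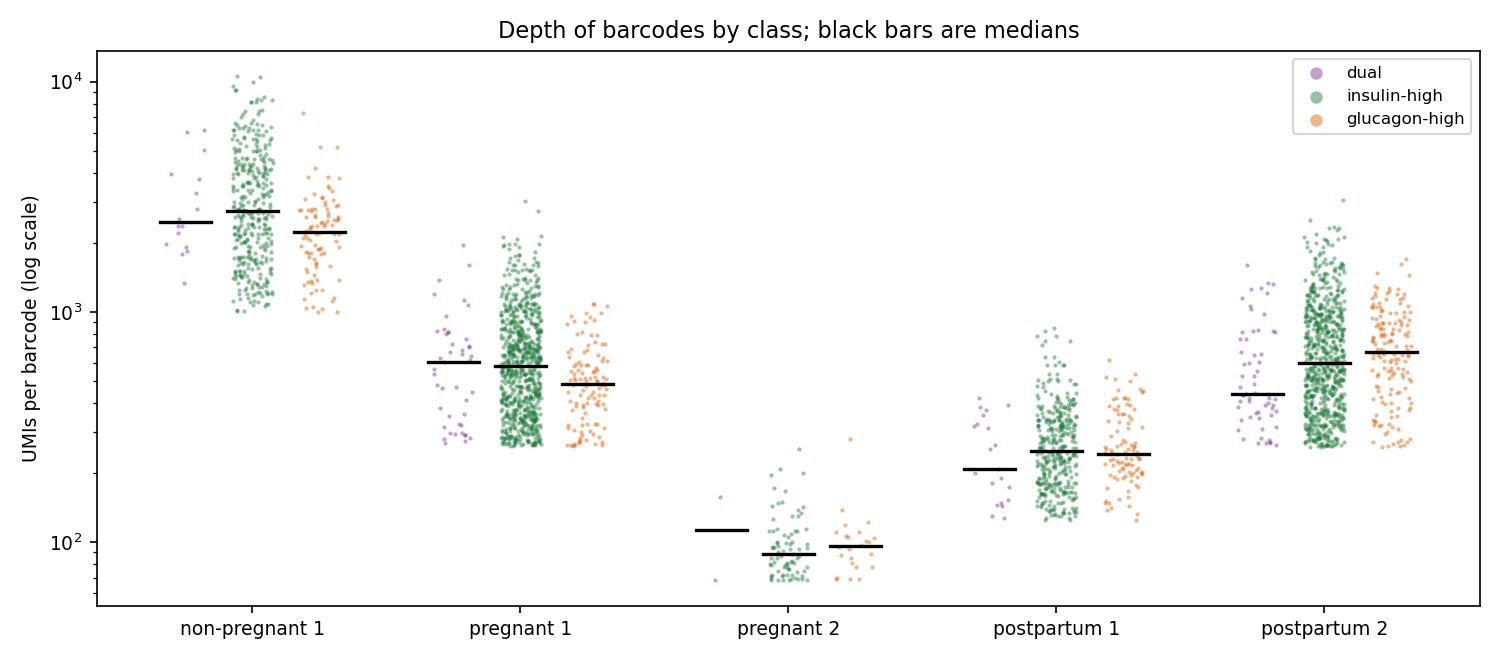
UMIs per barcode on a log scale for dual, insulin-high and glucagon-high barcodes of each library, with 1 point a barcode and a black bar at the median. The dual medians (2453, 605, 112.5, 207 and 440 UMIs in library order) lie between the other medians in the non-pregnant library, above both in pregnant 1 and 2, and below both in postpartum 1 and 2.

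Transcripts that mark alpha cells beside glucagon were present in dual barcodes at a level between the other classes in all 4 libraries. The alpha list held 14 measured genes, led by Ttr (transthyretin, a carrier of thyroid hormone and retinol-binding protein that mouse alpha cells make in quantity). It also held the alpha cell transcription factors Irx1 and Irx2, which added little. Irx1 had 2, 2, 0 and 3 UMIs and Irx2 had 2, 0, 0 and 1 in dual barcodes of the non-pregnant, pregnant 1, postpartum 1 and postpartum 2 libraries. Levels are given as a percent of UMIs outside 8 hormone genes, so that the hormones themselves do not move them. In dual barcodes the list made up 1.38% in the non-pregnant library, 1.07% in pregnant 1, 3.11% in postpartum 1 and 2.98% in postpartum 2. It made up 0.336%, 0.227%, 0.276% and 0.313% in insulin-high barcodes and 2.56%, 2.59%, 7.48% and 7.18% in glucagon-high barcodes. The dual level was thus 4.12, 4.73, 11.3 and 9.51 times that of insulin-high barcodes and 0.540, 0.415, 0.416 and 0.414 times that of glucagon-high barcodes.

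Ttr supplied most of this. Without it, the 13 other genes made up 0.430%, 0.186%, 0.382% and 0.294% in dual barcodes, against 0.270%, 0.15%, 0.191% and 0.205% in insulin-high barcodes and 0.634%, 0.491%, 0.784% and 0.626% in glucagon-high barcodes. The order of the classes was the same in all 4 libraries, with a smaller gap to the insulin-high level. Peg3, Tmem176a and Tmem176b held 583, 230 and 510 of the 1595 such UMIs in insulin-high barcodes of the non-pregnant library. These 3 genes did not separate glucagon-high from insulin-high barcodes in the gene fits below (log2 differences 0.38, 0.0001 and -0.34, none called by limma). In pregnant 1 and postpartum 2 the 95% intervals of dual (0.121 to 0.275 and 0.204 to 0.411) and insulin-high barcodes (0.135 to 0.167 and 0.183 to 0.229) overlapped, as they did in postpartum 1, where 7 UMIs carried the dual value. The 2 dual barcodes of pregnant 2 had 0 UMIs of either list among 119, which allows a level of up to 3.05% (upper bound of the exact interval).

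Beta cell transcripts other than the hormones were present as well. The beta list held 17 measured genes, among them Mafa, Pdx1 and Nkx6-1 (transcription factors of mature beta cells), G6pc2 (a glucose-6-phosphatase subunit that sets glucose sensitivity), Prlr (the prolactin receptor), Pcsk1 (a convertase that cleaves proinsulin) and Ero1lb (an oxidase for disulfide bonds in the endoplasmic reticulum). It made up 0.681%, 1.04%, 2.62% and 1.17% of non-hormone UMIs in dual barcodes of the non-pregnant, pregnant 1, postpartum 1 and postpartum 2 libraries. It made up 1.02%, 1.38%, 2.52% and 2.36% in insulin-high barcodes and 0.112%, 0.131%, 0.201% and 0.158% in glucagon-high barcodes. The dual level was 0.670, 0.756, 1.04 and 0.495 times the insulin-high one, below it in 3 of 4 libraries. It was 6.10, 7.99, 13 and 7.41 times the glucagon-high one.

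**Figure D3:**
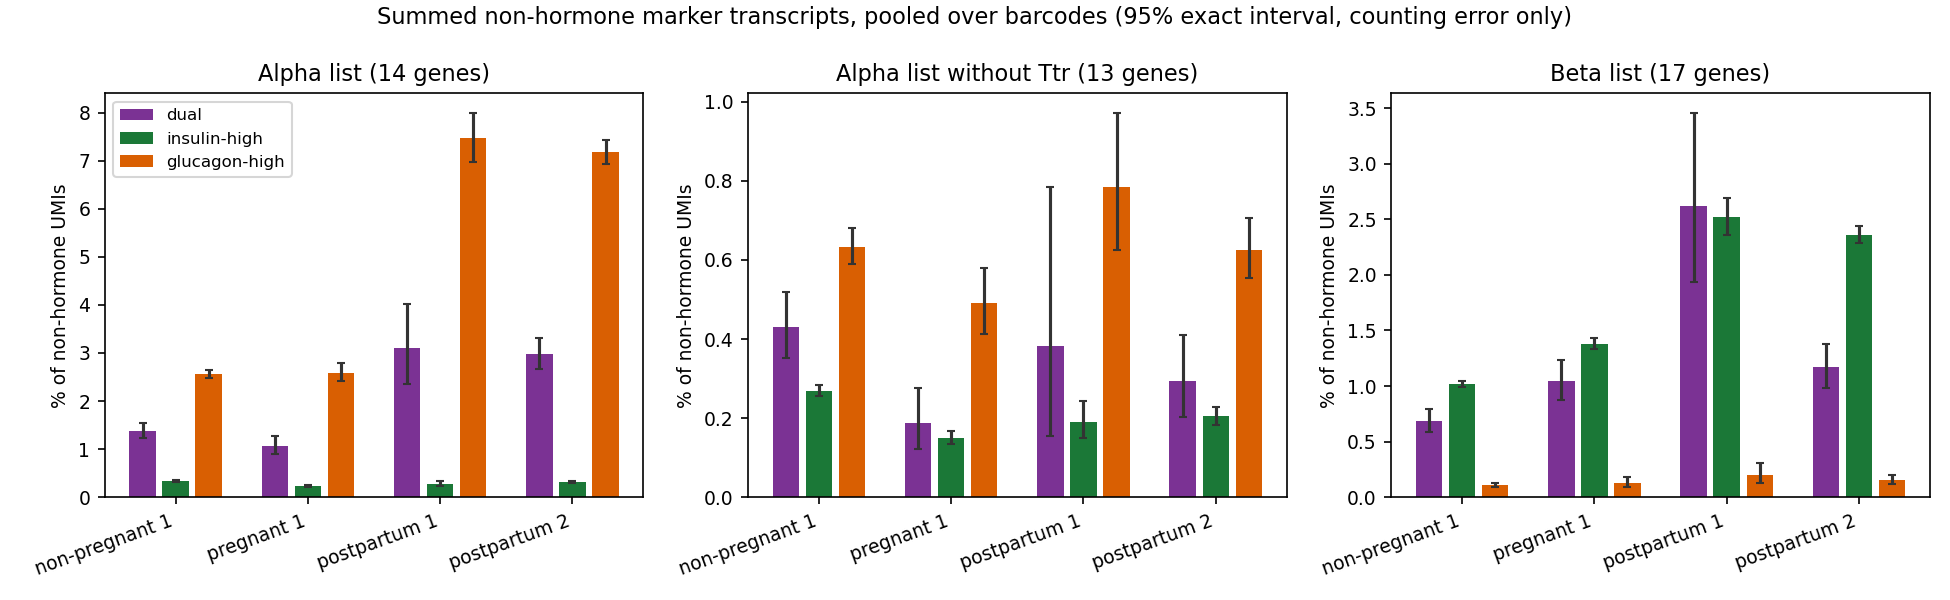
Summed UMIs of the alpha list, the alpha list without Ttr and the beta list as a percent of non-hormone UMIs, pooled over the barcodes of each class, for the 4 libraries with enough dual barcodes; error bars are 95% exact intervals for counting error. Dual barcodes lie between insulin-high and glucagon-high barcodes, except on the beta list in postpartum 1 (2.62% against 2.52% in insulin-high barcodes).

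Marker transcripts were also set against the hormone of their type, which the rule selected on, so these ratios are a description. Per 100 Gcg UMIs there were 8.14, 5.59, 5.21 and 6.05 alpha list UMIs in dual barcodes of the non-pregnant, pregnant 1, postpartum 1 and postpartum 2 libraries, against 6.69, 4.83, 5.64 and 6.28 in glucagon-high barcodes. Per 100 insulin UMIs there were 1.72, 2.08, 3.15 and 0.995 beta list UMIs in dual barcodes, against 1.85, 1.76, 1.88 and 1.21 in insulin-high barcodes. Dual barcodes were higher in 2 libraries and lower in 2 in both comparisons, and the beta list in postpartum 1 stood apart at 3.15 against 1.88.

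Placed on a scale from 0 at the insulin-high mean to 100 at the glucagon-high mean of the same library, Gcg put dual barcodes at 38.9, 30.1, 40.7 and 33.5, which the rule partly fixes. The alpha list put them at 47.0, 35.8, 39.4 and 38.8, and Iapp, the amyloid peptide that beta cells release with insulin, at 39.3, 31.0, 45 and 29.0. Without Ttr, the alpha list put them at 44.0, 10.6, 32.2 and 21.1, so the closeness of its values to those of Gcg rested largely on Ttr. The beta list gave 37.1, 27.0, -4.26 and 54.1, a wider spread, with the value below 0 resting on 48 UMIs in postpartum 1. On each of these scales dual barcodes lay nearer to insulin-high than to glucagon-high barcodes, except for the beta list in postpartum 2.

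Transcripts of both lists were often found in the same dual barcode. At least 1 UMI of each list was found in 16 of 16, 29 of 45, 12 of 21 and 47 of 61 dual barcodes in library order. Depth sets such shares, so each barcode was also thinned to 100 non-hormone UMIs, leaving out the 0, 1, 16 and 13 shallower dual barcodes. Then 37.5%, 27.3%, 60.0% and 52.1% of dual barcodes held both lists (6 of 16, 12 of 44, 3 of 5 and 25 of 48). The same share was 16.6%, 13.3%, 21.7% and 22.1% in insulin-high barcodes and 7.61%, 9.01%, 10.4% and 12.2% in glucagon-high barcodes, so it was highest in dual barcodes in all 4 libraries. Taken singly, the alpha list was found in 75%, 50%, 80% and 85.4% of thinned dual barcodes. The beta list was found in 43.8%, 59.1%, 80% and 64.6%. Each of these shares lay between those of the other classes. The joint share depends on them, and whether the lists go together within barcodes was not tested. The alpha list used for it includes Peg3, Tmem176a and Tmem176b, which did not separate glucagon-high from insulin-high barcodes. At that equal depth the median number of genes was 93, 90, 86 and 79 in dual barcodes, 94, 89, 88 and 84 in insulin-high barcodes and 91, 87, 82 and 78 in glucagon-high barcodes, so dual barcodes lay within 5 genes of either class.

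Within the dual barcodes, those with more Gcg had more of the alpha list. In the upper part by Gcg of each library (8, 22, 10 and 30 barcodes) the list made up 1.78%, 1.29%, 3.72% and 3.52% of non-hormone UMIs, against 1.00%, 0.709%, 2.51% and 2.45% in the lower part (8, 23, 11 and 31 barcodes). The beta list made up 0.678%, 1.07%, 2.4% and 1.02% in the upper part and 0.684%, 0.993%, 2.84% and 1.31% in the lower part. The alpha list was higher in the upper part in all 4 libraries, and the beta list in 1 of 4. The split used Gcg, a gene of the rule, and is a description. The median depth was 2453, 706.5, 316 and 465 UMIs in the upper part and 2578, 465, 180 and 411 UMIs in the lower part, and its part in the difference was not tested.

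Genes were then compared one by one, on the mean over barcodes of counts per 1000000 non-hormone UMIs (CPM) in each class and library. The limma fit covered 2398 genes in 3 classes and 4 libraries with library as a block, and differences are on the scale of log2(CPM + 100), which understates those of low genes. Compared with insulin-high barcodes, 7 genes (0.292% of those tested) were higher and 0 lower in dual barcodes at a Benjamini-Hochberg adjusted p under 0.05. At an unadjusted p under 0.05 limma gave 57 higher and 211 lower genes. Without postpartum 1 it gave 85 higher and 148 lower. On other gene sets, edgeR called 14 higher and 3 lower of 1268 genes, and DESeq2 called 24 higher and 0 lower of 6622, of which 3081 had no adjusted p. The median of all genes tested by limma was -0.22, against which the values below should be read, and -0.10 without postpartum 1. The 7 genes were Ttr, Gpx3, Rbp4, Pyy, Ppy, Sst and Gnas, and the same 7 were called by edgeR and by DESeq2.

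Ttr stood at 10751, 7785, 25704 and 32573 CPM in dual barcodes of the non-pregnant, pregnant 1, postpartum 1 and postpartum 2 libraries, against 664, 845, 816 and 1085 CPM in insulin-high barcodes. The groups did not overlap, and the log2 difference was 4.12 ± 0.25 (SE; limma, adjusted p = 3.68e-13). Single dual barcodes carried it widely: 16 of 16, 34 of 45, 15 of 21 and 59 of 61 had a Ttr UMI, against 44.9%, 17.9%, 6.89% and 17.4% of insulin-high barcodes.

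Gpx3, a secreted glutathione peroxidase, stood at 2148, 2027, 2311 and 645 CPM in dual barcodes, against 159, 327, 120.3 and 172 CPM in insulin-high barcodes. Every dual value lay above every insulin-high value, with a log2 difference of 2.58 ± 0.38 (SE; limma, adjusted p = 0.000101). Rbp4, the retinol-binding protein of blood and a member of the delta list, stood at 431, 783, 2208 and 1184 CPM in dual barcodes, against 129, 138, 50.4 and 92.3 CPM in insulin-high barcodes. These groups did not overlap either (log2 difference 2.44 ± 0.44 SE; limma, adjusted p = 0.00211), although the value of postpartum 1 rested on 3 UMIs in dual and 2 in insulin-high barcodes. With the thresholds at 20% and 10%, where only postpartum 1 and 2 held enough dual barcodes, the Rbp4 difference was -0.26 (limma, adjusted p = 0.881, the highest over its 16 alternatives, the lowest being 8.66e-09). Glucagon-high barcodes held Gpx3 at 6166, 4819, 2493 and 2874 CPM and Rbp4 at 975, 1464, 944 and 614 CPM. Both genes were higher there than in insulin-high barcodes (limma, adjusted p = 1.65e-08 and 0.000556). Neither passed between dual and glucagon-high barcodes (-1.20 and 0.04, limma, adjusted p = 0.0925 and 0.973).

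Gnas, which encodes the stimulatory G protein alpha subunit that couples glucagon and incretin receptors to cyclic AMP, stood at 7456, 7537, 5402 and 8718 CPM in dual barcodes, against 2810.2, 3701, 3337 and 3529 CPM in insulin-high barcodes. The groups did not overlap and the log2 difference was 1.09 ± 0.22 (SE; limma, adjusted p = 0.014). The call was lost without the non-pregnant library (limma, adjusted p = 0.121) and without postpartum 2 (limma, adjusted p = 0.395), at differences of 0.99 and 1.02, and its adjusted p ranged from 8.65e-18 to 0.639 over 16 alternatives.

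Of the alpha list, 12 genes were tested and 1 of them, Ttr, rose over insulin-high barcodes. The differences were positive for 9 of 12, with a median of 0.45 against -0.22 over all genes tested; edgeR called 4 of the list and DESeq2 5. Gc, the vitamin D-binding protein, stood at 622, 63.1, 2060.2 and 579 CPM in dual barcodes and 126, 73.8, 25.5 and 38.4 CPM in insulin-high barcodes. It was higher in 3 of 4 libraries and did not pass by limma (log2 difference 2.00 ± 0.49 SE, adjusted p = 0.0761), while edgeR (adjusted p = 3.2e-05) and DESeq2 (adjusted p = 9.2e-06) called it, as did 4 of 16 alternatives in all (highest adjusted p 0.723). Etv1, an ETS family transcription factor, stood at 319, 259.5, 1249 and 141 CPM in dual and 107, 91.1, 0 and 33.9 CPM in insulin-high barcodes, higher in 4 of 4 (1.63 ± 0.46 SE; limma, adjusted p = 0.174). In postpartum 1 the dual barcodes held 1832 non-hormone UMIs, so 2 UMIs made up that level of Etv1, and 3 counts, the limit for a gene at 0, would be 1638 CPM.

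No gene of the beta list passed against insulin-high barcodes (0 of 15 higher and 0 lower by limma, 0 and 1 at an unadjusted p under 0.05, and 1 lower by edgeR and 0 by DESeq2). The differences were negative for 12 of 15, with a median of -0.37 against -0.22 over all genes tested. Prlr stood at 1304, 1145, 5467 and 4708 CPM in dual barcodes, against 1259, 1805, 6737 and 7227 CPM in insulin-high barcodes, and its difference of -0.37 ± 0.44 (SE) did not pass (limma, adjusted p = 0.754). Both classes were higher in both postpartum libraries than in the non-pregnant library and pregnant 1. Iapp stood at 80860.5, 84912, 132869 and 83701 CPM in dual barcodes, below 128027, 110635, 239306 and 113113 CPM in insulin-high barcodes of the same library in 4 of 4, a difference of -0.58 ± 0.21 (SE) that did not pass (limma, adjusted p = 0.311).

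Compared with glucagon-high barcodes, 28 genes (1.17%) rose and 14 (0.584%) fell in dual barcodes, 1.75% in all (limma). The total of 42 genes became 23 without the non-pregnant library and 18 without postpartum 2. Of the 28 higher genes 23 were also called by edgeR, 22 by DESeq2 and 13 with each of the 4 libraries left out in turn. Of the 14 lower genes 8 were also called by edgeR, 4 by DESeq2, and 2, Ttr and Pyy, with each library left out in turn. For 11 of the 14, dual barcodes of postpartum 1 held 0 UMIs at that limit of 1638 CPM.

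Of the 28 higher genes 9 were on the beta list: of its 15 tested genes 9 rose and 0 fell, with a median log2 difference of 2.03 against -0.07 over all genes tested. Prlr, given above for dual barcodes, stood at 55, 93.9, 0 and 56.6 CPM in glucagon-high barcodes, and the log2 difference was 4.15 ± 0.44 (SE; limma, adjusted p = 2.35e-07). G6pc2 stood at 853, 1605, 3836 and 1561 CPM in dual barcodes, against 67.0, 67.3, 115 and 0 CPM in glucagon-high barcodes (3.53 ± 0.39 SE; limma, adjusted p = 3.01e-07). Ero1lb stood at 716, 1061, 5103 and 2167 CPM in dual barcodes, against 91.5, 95.9, 0 and 58.6 CPM in glucagon-high barcodes (3.55 ± 0.45 SE; limma, adjusted p = 6.07e-06). For these 3 genes the groups did not overlap.

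Pcsk1 stood at 427, 467, 4199.7 and 759 CPM in dual barcodes, against 27.5, 0, 0 and 0 CPM in glucagon-high barcodes (3.27 ± 0.46 SE; limma, adjusted p = 2.58e-05). Hadh, a mitochondrial enzyme of fatty acid oxidation that restrains insulin release, stood at 1098, 791, 1423 and 521 CPM in dual barcodes, against 79.1, 123, 54.9 and 47.8 CPM in glucagon-high barcodes (2.53 ± 0.40 SE; limma, adjusted p = 0.000186). The groups did not overlap for either gene, and Prlr, G6pc2, Ero1lb, Pcsk1 and Hadh kept the call with each library left out in turn.

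The other 4 were Mafa, Ucn3 (urocortin 3, a peptide of mature beta cells), Papss2 (which makes the sulfate donor of sulfation) and Sytl4 (granuphilin, which docks insulin granules), and each lost the call without some library. Mafa stood at 0, 749, 2099 and 624 CPM in dual barcodes, against 0, 32.4, 105 and 74.7 CPM in glucagon-high barcodes. In the non-pregnant library Mafa had a total of 1 UMI over the 356 insulin-high barcodes, so its 0 in dual barcodes there could not show an absence. Its adjusted p of 0.0246 became 0.138, 0.0975 and 0.109 without pregnant 1, postpartum 1 and postpartum 2 (limma; range 0.000316 to 0.748 over 16 alternatives, edgeR and DESeq2 among them). Ucn3 had 12, 19, 0 and 6 UMIs in dual barcodes, against 3, 0, 0 and 3 in glucagon-high barcodes. Its adjusted p of 0.0251 became 0.0950, 0.227 and 0.105 without the non-pregnant, pregnant 1 and postpartum 2 libraries (limma, range 3.11e-10 to 0.504). The adjusted p of Papss2 (0.011) became 0.0657 without the non-pregnant library (limma, range 8.82e-05 to 0.543). The adjusted p of Sytl4 (0.0117), which rested on 10 UMIs in dual and 1 in glucagon-high barcodes, became 0.141 and 0.0941 without pregnant 1 and postpartum 2 (limma, range 0.0023 to 0.843).

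All 12 tested genes of the alpha list were lower in dual than in glucagon-high barcodes, with a median of -1.19 against -0.07 over all genes tested, and 2 of them, Ttr among them, fell by the test. Ttr, given above for dual barcodes, stood at 20009.6, 20855, 66237 and 64499.8 CPM in glucagon-high barcodes, above the dual value of the same library in 4 of 4 (log2 difference -1.16 ± 0.25 SE; limma, adjusted p = 0.011).

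**Figure D4:**
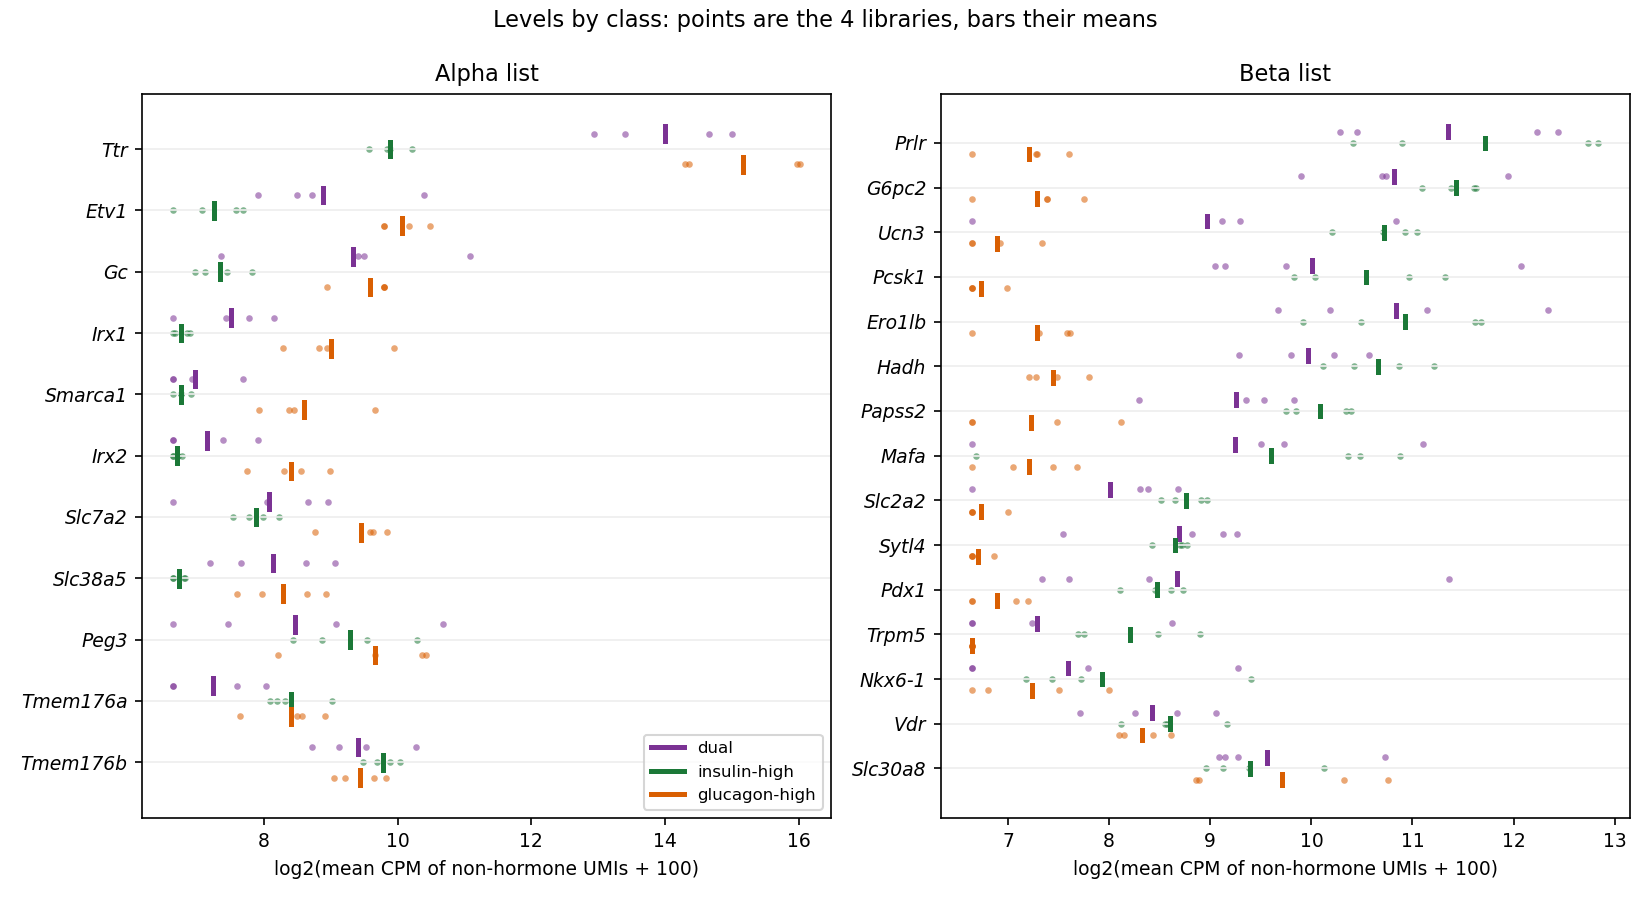
Level of each tested gene of the alpha list (left) and the beta list (right) as log2(mean CPM of non-hormone UMIs + 100), with points for the 4 libraries and bars for the class means; 1 tested alpha gene is not drawn. The dual mean lies below both other means for Peg3, Tmem176a and Tmem176b, above both for Pdx1 and Sytl4, and between them for the other genes drawn. Those 3 alpha genes passed against neither class, and Pdx1 and Sytl4 did not pass against insulin-high barcodes (limma).

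By the means of the 4 libraries, dual barcodes lay between insulin-high and glucagon-high barcodes for 9 of 12 alpha genes and 13 of 15 beta genes. The alpha genes below both classes were Peg3, Tmem176a and Tmem176b, and the beta genes above both were Pdx1 and Sytl4. None of the 3 alpha genes passed against either class (limma), and Tmem176a had 0 UMIs in dual barcodes of both postpartum libraries. Pdx1 differed from insulin-high barcodes by 0.20 (limma, adjusted p = 0.889). It was higher in 1 of 4 libraries, postpartum 1, on 4 UMIs. Sytl4 differed from insulin-high barcodes by 0.03 (limma, adjusted p = 0.985). Between glucagon-high and insulin-high barcodes themselves 34 genes (1.42%) were higher and 53 (2.21%) lower, 87 in all (3.63%; limma), with 9 of the 12 alpha genes higher and 10 of the 15 beta genes lower in glucagon-high barcodes. Slc30a8, the zinc transporter of insulin granules, is on the beta list but stood at 466, 445, 1591 and 521 CPM in dual, 397, 459.9, 1013 and 568 CPM in insulin-high and 374, 364, 1632 and 1179 CPM in glucagon-high barcodes, so it did not separate the classes here.

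Genes outside the lists also differed between dual and glucagon-high barcodes. Enpp2 (autotaxin, which makes lysophosphatidic acid) stood at 172, 407, 1350.1 and 2307 CPM in dual barcodes, against 74.2, 0, 0 and 85.5 CPM in glucagon-high barcodes (log2 difference 2.63 ± 0.47 SE; limma, adjusted p = 0.00097). Atf5, a stress-responsive transcription factor, stood at 1082, 1826, 507 and 267 CPM in dual barcodes, against 207, 166, 0 and 32.0 CPM in glucagon-high barcodes (2.22 ± 0.41 SE; limma, adjusted p = 0.00131). Prss53, a serine protease, had 19, 11, 1 and 7 UMIs in dual barcodes, against 1, 2, 0 and 0 in glucagon-high barcodes (limma, adjusted p = 0.000103). Dual values exceeded those of glucagon-high barcodes in 4 of 4 libraries for each of the 3 genes. Insulin-high barcodes held Enpp2 at 395, 693, 2447 and 2869 CPM and Atf5 at 1780, 1277, 882 and 390 CPM. They held Prss53 at 1314, 1267, 772 and 887 CPM. None of the 3 passed between dual and insulin-high barcodes (limma, adjusted p = 0.565, 0.763 and 0.482). All 3 were lower in glucagon-high than in insulin-high barcodes (limma, adjusted p = 1.26e-05, 9.36e-05 and 6.46e-07). Gnas, given above for dual barcodes, stood at 16856, 16154, 8606 and 13821 CPM in glucagon-high barcodes, above the dual value in 4 of 4 libraries (-0.89 ± 0.22 SE; limma, adjusted p = 0.0328). That call was lost without the non-pregnant, pregnant 1 or postpartum 2 library (limma, adjusted p = 0.122, 0.151 and 0.105, range 0.000829 to 0.345 over 16 alternatives). Among the lower genes, Pappa2, a protease that frees insulin-like growth factors, had the most negative difference, -2.15 ± 0.51 (SE; limma, adjusted p = 0.0242), at 416, 0, 0 and 651 CPM in dual and 943, 169, 2290.1 and 2154 CPM in glucagon-high barcodes. It lost the call without postpartum 1 and without postpartum 2 (limma, adjusted p = 0.102 and 0.0595, range 0.0023 to 0.498 over 16 alternatives).

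Genes that all islet endocrine cells share gave 2 of 13 tested genes higher and 0 lower than in glucagon-high barcodes by limma (3 higher and 2 lower at an unadjusted p under 0.05, 2 and 0 by edgeR, 2 and 2 by DESeq2). Against insulin-high barcodes it was 0 higher and 0 lower by limma (1 and 2 at an unadjusted p under 0.05) and 0 by edgeR and by DESeq2. By the means of the 4 libraries, dual barcodes lay between the other classes for 8 of the 13, below both for Neurod1, Isl1, Pax6, Nkx2-2 and Insm1, all transcription factors of endocrine cells, and above both for 0. None of these 5 passed against either class (limma). Chgb (chromogranin B, a core protein of secretory granules) stood at 2146, 3683, 7238 and 5656 CPM in dual barcodes, against 1038, 859, 886 and 523 CPM in glucagon-high barcodes (log2 difference 2.27 ± 0.33 SE; limma, adjusted p = 5.55e-05). Scg2 (secretogranin II, of the same granules) stood at 4381, 7178, 11412 and 8254 CPM in dual barcodes, against 1573, 2865, 1743 and 2051 CPM in glucagon-high barcodes (1.83 ± 0.25 SE; limma, adjusted p = 2.5e-05). Neither pair of groups overlapped. The dual levels of Chgb and Scg2 were near those of insulin-high barcodes, which were 2307, 4832, 7290.1 and 6713 CPM for Chgb and 5987, 7828, 12397 and 11192 CPM for Scg2.

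Hormones of the other endocrine cells were present in dual barcodes too. Pyy, a peptide of the gut and of islet cells other than beta cells, stood at 21251, 33991, 29668 and 41075 CPM in dual barcodes, against 6694, 9596, 2387 and 8598 CPM in insulin-high barcodes (log2 difference 2.32 ± 0.20 SE; limma, adjusted p = 1.32e-09). In glucagon-high barcodes it stood at 63795, 94209, 44213 and 70556 CPM, above the dual value of every library (-1.10 ± 0.20 SE; limma, adjusted p = 0.0011). Dual barcodes thus lay between the classes, with no overlap on either side.

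Ppy, the pancreatic polypeptide of gamma cells, stood at 8479.9, 16596, 9034 and 19906 CPM in dual barcodes, against 6541, 5488, 2021 and 8034 CPM in insulin-high barcodes (1.34 ± 0.22 SE; limma, adjusted p = 0.000948). Sst, the somatostatin of delta cells, stood at 7678, 5756, 2226 and 19515 CPM in dual barcodes, against 5895, 2358, 1041 and 2986 CPM in insulin-high barcodes (1.33 ± 0.29 SE; limma, adjusted p = 0.0276). Both were higher in dual than in insulin-high barcodes in 4 of 4 libraries, and the groups overlapped for Sst and not for Ppy. Sst lost the call without postpartum 2 (0.89, limma, adjusted p = 0.619, range 2.05e-05 to 0.685 over 15 alternatives). In glucagon-high barcodes Ppy stood at 26030, 22462, 8722 and 47474 CPM and Sst at 11980, 7017, 4062 and 8187 CPM. The dual value was the lower one in 3 of 4 libraries for each gene. Neither difference passed (Ppy -0.81 ± 0.22 SE, limma, adjusted p = 0.0517, and Sst -0.13 ± 0.29 SE, limma, adjusted p = 0.871). Of dual barcodes 1 of 16, 13 of 45, 2 of 21 and 18 of 61 had at least 1% of UMIs on Sst or on Ppy. Leaving them out lowers Sst and Ppy by construction, and the other classes, which also hold such barcodes, were not trimmed, so no value of Sst or Ppy is read from it. Of the other 5 genes higher than in insulin-high barcodes, Ttr, Pyy and Gpx3 were still called without them. Rbp4, which is on the delta list with Sst and was also high in glucagon-high barcodes, was not (1.90, limma, adjusted p = 0.194, range 8.66e-09 to 0.881 over 16 alternatives). Nor was Gnas (0.91, limma, adjusted p = 0.144, range 8.65e-18 to 0.639).

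Markers of cells outside the endocrine islet were scarce in dual barcodes, and their part in the results above was not tested. The acinar list (11 genes measured of 12) took 4, 0, 0 and 4 UMIs in the 4 libraries, at most 0.0346% of non-hormone UMIs, against at most 0.0479% in insulin-high and 0.0302% in glucagon-high barcodes. Of its genes 9, 11, 11 and 7 were at 0 in dual barcodes. The endothelial list (7 genes) took 12, 5, 0 and 0 UMIs, or 0.0487%, 0.0373%, 0% and 0%, against 0.0169%, 0.0150%, 0.0197% and 0.0194% in insulin-high barcodes and at most 0.00755% in glucagon-high barcodes. In the non-pregnant library the exact interval of dual barcodes (0.0251 to 0.0850) lay above that of insulin-high barcodes (0.0138 to 0.0206). The 1 mesenchymal gene measured took 4, 6, 0 and 0 UMIs, and in pregnant 1 its 0.0447% (0.0164 to 0.0974) lay above 0.00663% (0.00371 to 0.0109) in insulin-high barcodes. These 12 endothelial and 6 mesenchymal UMIs came from 5 of 16 and 4 of 45 dual barcodes. The intervals cover counting error only and not the spread between barcodes, so they do not show a difference between classes. The macrophage list (4 genes measured of 8) took 3, 3, 1 and 6 UMIs, at most 0.0546%, against at most 0.0535% and 0.0318% in insulin-high and glucagon-high barcodes, and its 1 tested gene did not pass (limma, edgeR and DESeq2).

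The ductal list (3 genes measured of 5) took 34, 28, 1 and 8 UMIs, 0.0546% to 0.209%, against 0.0310% to 0.158% in insulin-high and 0.0287% to 0.249% in glucagon-high barcodes. None of its 3 genes passed by limma, edgeR or DESeq2 (0 at an unadjusted p under 0.05 against insulin-high and 1 against glucagon-high barcodes). Of the progenitor list 2 of 6 genes were measured: Neurog3, which starts endocrine differentiation in the embryo, had 0 UMIs in dual barcodes, and Hes1 had 2, 1, 1 and 0 and did not pass (limma). Of the delta list, Sst and Rbp4 are given above, and Hhex had 0 UMIs in dual barcodes. Of the gamma list only Ppy and Pyy were measured. The immediate early genes, which rise when tissue is dissociated, made up 0.349%, 0.649%, 2.57% and 2.64% of non-hormone UMIs in dual barcodes. They made up 0.272%, 0.676%, 2.49% and 2.67% in insulin-high and 0.484%, 0.820%, 3.15% and 2.81% in glucagon-high barcodes. The classes of a library lay closer to each other than the non-pregnant library and pregnant 1 lay to the postpartum libraries, and 0 of 15 genes passed against either class by limma, edgeR or DESeq2 (0 and 3 at an unadjusted p under 0.05 against insulin-high and glucagon-high barcodes).

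Values of dual barcodes are set here beside the other classes in the order of the states. Their insulin share averaged 20.3% in the non-pregnant library, 23.6% in pregnant 1 and 28.8% and 37.5% in the postpartum libraries, and insulin-high barcodes had the same order at 27.9%, 35.0%, 46.3% and 56.2%. Their Ttr level was 10751 CPM in the non-pregnant library, 7785 CPM in pregnant 1 and 25704 and 32573 CPM postpartum, with 20009.6, 20855, 66237 and 64499.8 CPM in glucagon-high barcodes. Their Prlr level was 1304, 1145, 5467 and 4708 CPM, with 1259, 1805, 6737 and 7227 CPM in insulin-high barcodes. Ttr and Prlr were lower in pregnant 1 than in the non-pregnant library in dual barcodes but not in the class beside them, and both were highest in the postpartum libraries in both classes. With 1 usable library each of the non-pregnant and pregnant states, differences between states were not tested, and state and library cannot be told apart there.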

How the data were processed

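Per the labels, inDrop libraries were made from polyadenylated RNA of dissociated islets. The submitters' processing notes list the builds GRCm38 and mm10, Partek 8.0 and Bowtie 1.1.1 without saying what each did. How the authors counted transcripts and filtered cells is not stated there. The non-pregnant file deposited by the authors holds a linear signal, in which every barcode sums to 3023.99 over 40930 features. The other 4 deposited files hold log2 values of counts per 1000000 plus 1 over 6695 features, whose kept features do not always sum to 1000000. Whole UMIs per barcode were recovered as multiples of the smallest step and taken as UMIs; 100% of values lay within 0.1 of a whole number in every file. In 9 barcodes of pregnant 2 the smallest value was more than 1 step, and whether 1 recovered count is 1 molecule is not known there. Libraries held 2561319, 1271186, 16306, 148522 and 781832 UMIs.

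Files were joined by symbol (6543 features) or a unique RefSeq synonym (83), giving 6626 genes; 55 features were unmatched and 14 had names turned into dates. Thresholds used shares of all UMIs of a barcode. No doublet caller was run and no barcode was removed. Levels use UMIs outside Ins1, Ins2, Gcg, Iapp, Sst, Ppy, Pyy and Ghrl. Genes averaging 100 CPM or more over all class and library columns entered limma 3.58.1 (R 4.3.3) with a trended prior, library as a block and 6 residual degrees of freedom, on the 4 libraries with at least 10 barcodes in each class. Ins1, Ins2 and Gcg stayed out. edgeR 4.0.16 and DESeq2 1.42.0 on UMIs summed per class and library were alternatives; the limma step was tested on simulated data. Named genes were the hormones, the tested members of the alpha, beta and pan-endocrine lists, and the 10 genes per direction with the largest called difference that moved the same way in every library. Gene lists covered alpha, beta, delta, gamma, all endocrine, progenitor, immediate early, acinar, ductal, endothelial, macrophage and mesenchymal genes. The barcodes, lists and tests were chosen with earlier results of these data known. Alternatives were added constants, filters, tools, thresholds, classes, thinning, the block and each library left out. Some genes of the alpha list count in its totals and are not reported here by name.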

Additional observations from a re-analysis of the deposited data

Results flagged for a closer look

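The depth of dual barcodes, set against the other classes of their own library, went in opposite directions in some states. These differences were not tested, and both the non-pregnant and the pregnant value rest on 1 library. Against insulin-high barcodes, the mean log2 ratio of median UMIs was higher by 0.222 in the pregnant than in the non-pregnant library. In the same ratio the postpartum libraries differed from the pregnant one by -0.419. Against glucagon-high barcodes, the postpartum libraries differed from the non-pregnant one by -0.559 and from the pregnant one by -0.737. Dual barcodes had fewer UMIs than either class in both postpartum libraries, and more UMIs than either class in pregnant 1.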

How the results depend on the processing

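Over the named genes, each recomputed under each setting, calls against glucagon-high barcodes were kept 283 times, lost in the same direction 156 times and reversed 0 times; calls against insulin-high barcodes were kept 86 times, lost 22 times and reversed 1 time, for Rbp4 at -0.26 with thresholds of 20% and 10%. The count of genes higher or lower than in insulin-high barcodes (7) was 24 with DESeq2, 17 with edgeR, 3 when each barcode was thinned, 3 against all other barcodes on each side of the rule and 2 with thresholds of 20% and 10%. With barcodes of at least 1% Sst or Ppy left out, an alternative chosen after seeing the data, it was 3. The count against glucagon-high barcodes (42) was 13 when thinned, 20 with no filter and 1 at 20% and 10%. The count between glucagon-high and insulin-high barcodes (87) was 254 with DESeq2, 304 with edgeR, 22 when thinned and 8 at 20% and 10%. The stricter thresholds left postpartum 1 and 2 only, and thinning left the other 3 libraries of the fit without postpartum 1. Thinning also left out Iapp, Sst, Ppy and Pyy by construction, so these genes could not be called there. Of the 7 genes higher than in insulin-high barcodes, only Ttr, Gpx3, Rbp4 and Gnas remained for it. Ttr, Gpx3 and Gnas were called. Classes are paired by library; with library not in the fit as a block, the 3 counts were 4, 11 and 44. Leaving out each library in turn gave 5 to 9, 18 to 35 and 37 to 100 genes.

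The number of dual barcodes (145) was 641 at 10% and 2.5%, 67 at 15% and 10% and 49 at 20% and 10%. It was 143 without pregnant 2 and 129 without the non-pregnant library, both chosen after seeing the data. The depth ratio over glucagon-high barcodes (-0.09) was 0.0744 on means in place of medians and ranged from -0.23 to 0.0802 with each library left out. The mean log2 ratio of the alpha list over insulin-high barcodes (2.76) was 0.63 without Ttr and 3.53 at 20% and 10%. The other depth and list ratios kept their direction in every setting tried. Except where named by construction, the cause was not tested. Depth also limits the values: 3 counts in dual barcodes are worth 122, 224, 1638 and 259.6 CPM in the libraries of the fit, so low genes could not be shown to be absent, least of all in postpartum 1.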
